A study of Mus musculus with 2 samples.

Results

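The 7 genes described here encode caveolins (Cav1 and Cav2), cavins (Cavin1, Cavin2 and Cavin3), the diaphragm protein of leaky vessels (Plvap) and a lipid transporter of the blood-brain barrier (Mfsd2a). They were taken by symbol from the 19059 genes counted in each library, and all 7 were present. Hippocampus of aged C57BL/6 mice was profiled with a probe-based single-cell assay. The control library came from 4 pooled mice on standard chow, and the tomatidine library from 4 pooled mice whose diet held 0.05% tomatidine, a plant steroidal alkaloid, for 3 months from 21 months of age. The study used mice of both sexes, the sexes in each pool are not given in the sources used here, and a value for a single mouse cannot be read from a pool. With 1 library a group there was no test between groups, no difference has a replicate check, and an effect of the diet cannot be told apart from a difference between the libraries.

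Caveolae are flask-shaped pits of the plasma membrane. Caveolin-1 is their main membrane protein, caveolin-2 binds it, cavin-1 is the coat protein needed to form the pit, and cavin-2 and cavin-3 join that coat. In many vascular beds endothelial caveolae carry plasma proteins across the cell, a route called transcytosis. Brain capillaries keep this route low, and Mfsd2a, which carries lysophosphatidylcholine with omega-3 fatty acids into the brain, is known to hold caveolar vesicles down there. Plvap forms the diaphragms of caveolae and fenestrae in vessels without a barrier.

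The values were counts of unique molecular identifiers (UMIs), tags by which PCR copies of a molecule are counted once. The level of a gene in a cell class is its share of the UMIs of that class in the library, on the usual CPM scale. Intervals are at 95% and cover counting error only. Values are given for control first and tomatidine second. Probes differ between genes, so levels were compared across cells for 1 gene and not between genes.

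In mm10 the caveolin genes are neighbours on the plus strand, Cav2 (ENSMUSG00000000058) at chr6:17281185-17289115 and Cav1 (ENSMUSG00000007655) at chr6:17306335-17341452, with 17219 bases between them. Cavin1 (ENSMUSG00000004044) at chr11:100956733-100970887 and Cavin3 (ENSMUSG00000037060) at chr7:105480083-105482300 lie on the minus strand, and Cavin2 (ENSMUSG00000045954) at chr1:51289126-51302960 on the plus strand. Plvap (ENSMUSG00000034845) at chr8:71497765-71511752 and Mfsd2a (ENSMUSG00000028655) at chr4:122946850-122961188 lie on the minus strand. Cav1 has 7 annotated coding transcripts, Cav2 3 and Mfsd2a 2, which the counts do not separate.

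The libraries held 279525565 and 259059908 UMIs, and 15115 and 14502 cells were kept, with medians of 7066 and 7407 UMIs. Of the deposited barcodes, 292 occurred in both libraries. Clustering without the 7 genes gave 35 clusters, of which 9 stayed unnamed. One cluster, of 339 and 452 cells, was endothelial-like, with Cldn5, Flt1, Abcb1a and Pecam1 among its 10 leading genes. The mural gene Rgs5 was among them too, and mural cells had no cluster of their own. Cells of the cluster were therefore split by marker UMIs, after the data were seen, into 193 and 261 endothelial-like cells, 40 and 45 pericyte-like cells and 10 and 20 smooth muscle-like cells. A further 68 and 98 barcodes held both endothelial and mural markers, with median depths of 16844.5 and 14085.5 UMIs against 5796 and 4526 in endothelial-like cells, and 28 and 28 held too few marker UMIs.

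Cav1 was found mainly in endothelial-like, smooth muscle-like and oligodendrocyte precursor-like cells. Endothelial-like cells held 815 and 1139 Cav1 UMIs, levels of 406 CPM (379 to 435) in control and 574 CPM (541 to 608) in tomatidine. Smooth muscle-like cells stood at 305 CPM (181 to 482) and 602 CPM (447 to 794), from 18 and 50 UMIs, and did not differ from endothelial-like cells beyond counting error in either library. Fibroblast-like cells of the meninges or vessel wall had 57.1 and 45.5 CPM and astrocyte-like cells 17.8 and 17.0 CPM. Pericyte-like cells held 3 and 21 UMIs, 12.9 and 102 CPM, in 3 and 4 cells. Neuron-like and oligodendrocyte-like cells were below 8 CPM in both libraries. Of all Cav1 UMIs in kept cells, the endothelial cluster held 45.2% and 54.7%, and the precursor-like cells 26.1% and 17.9%. Within the cluster, endothelial-like cells held 25.8% and 29.7% of all Cav1 UMIs, and barcodes with both endothelial and mural markers 18.6% and 23.1%.

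Cav2 was spread more widely over the classes. Endothelial-like cells held 427 and 536 UMIs, 213 CPM (193 to 234) and 270.0 CPM (248 to 294). Smooth muscle-like cells had 237 and 157 CPM from 14 and 13 UMIs, and their ratio to endothelial-like cells was within counting error in both libraries. Ependymal-like cells stood at 114 and 115 CPM, astrocyte-like cells at 69.4 and 72.8 CPM and interneuron-like cells at 63.0 and 74.6 CPM. In interneuron-like cells Cav1 was at only 2.89 and 4.59 CPM. The endothelial cluster held 10.4% and 11.3% of all Cav2 UMIs.

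Cavin1, the core coat gene, was highest in smooth muscle. Smooth muscle-like cells stood at 1407 CPM (1121 to 1745) and 2120 CPM (1819 to 2458), from 83 and 176 UMIs. Endothelial-like cells came next at 449 CPM (419.8 to 479) and 555 CPM (523 to 589), with log2 ratios to smooth muscle-like cells of -1.65 (-1.97 to -1.31) and -1.93 (-2.16 to -1.70). Fibroblast-like cells at 166 and 153 CPM, ependymal-like cells at 144 and 158 CPM and pericyte-like cells at 90.3 and 194 CPM followed, and neighbours among these 3 classes did not differ beyond counting error. The endothelial cluster held 68.0% and 73.2% of all Cavin1 UMIs. Within it, endothelial-like cells held 34.9% and 30.6% of all Cavin1 UMIs, and barcodes with both endothelial and mural markers 28.8% and 36.4%.

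Cavin2 was mainly endothelial by level. Endothelial-like cells held 440 and 522 UMIs, 219 CPM (199 to 241) and 263 CPM (241 to 287). They were above the next class, smooth muscle-like cells at 67.8 and 36.1 CPM, beyond counting error in both libraries. Those smooth muscle levels rested on 4 and 3 UMIs, from 1 cell in each library, so their place as next class is uncertain. Control pericyte-like cells held 0 Cavin2 UMIs, which allows up to 12.9 CPM at a floor of 3 UMIs, and their Poisson interval reached 15.9 CPM. Oligodendrocyte-like cells stood at 17.2 and 13.4 CPM, but as a numerous class they carried 18.3% and 9.59% of all Cavin2 UMIs.

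Cavin3 had another order. Smooth muscle-like cells were highest at 237 and 398 CPM, from 14 and 33 UMIs, and oligodendrocyte-like cells came next at 129 CPM (124 to 134) and 144 CPM (138 to 150.1). Endothelial-like cells stood at 86.7 CPM (74.3 to 101) and 115 CPM (100.4 to 131). In the 54 and 111 endothelial-like cells low in astrocyte and neuron markers, described below, Cavin3 stood at 132 CPM (100.1 to 170) and 135 CPM (109 to 165). The order of oligodendrocyte-like and endothelial-like cells thus depended on which endothelial-like cells were taken. Oligodendrocyte-like cells held 40.1% and 33.0% of all Cavin3 UMIs and the endothelial cluster 5.82% and 8.20%. In oligodendrocyte-like cells Cav1 was at 6.96 and 6.88 CPM and Cavin1 at 1.88 and 1.99 CPM.

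**Figure D1:**
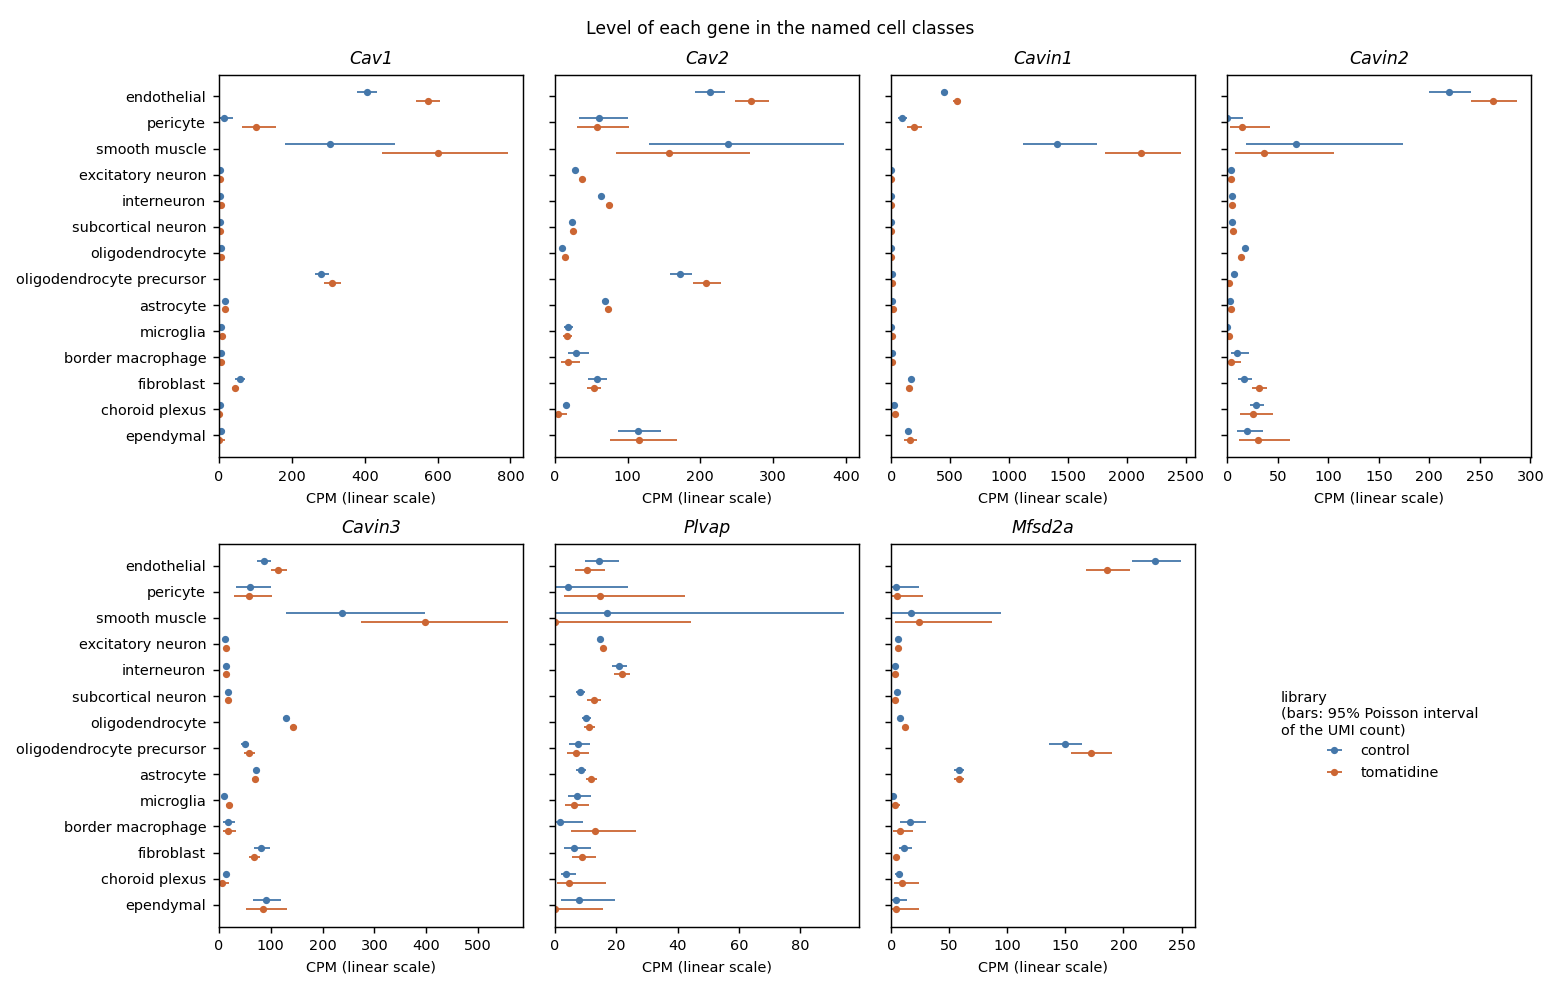
Level of each gene (CPM) in the 14 named cell classes, control and tomatidine side by side, with bars for the 95% Poisson interval of the UMI count. Cav1, Cav2 and Mfsd2a are high in both endothelial-like and oligodendrocyte precursor-like cells, while Cavin1 in the precursor-like cells is at 4.44 and 3.64 CPM. The level of Plvap is at most 21.8 CPM in each named class.

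Plvap was low in endothelium, and its level there was not above that of interneuron-like or excitatory neuron-like cells. Endothelial-like cells held 29 and 21 UMIs, 14.5 CPM (9.68 to 20.8) and 10.6 CPM (6.55 to 16.2). Interneuron-like cells stood at 20.8 and 21.8 CPM, excitatory neuron-like cells at 14.7 and 15.7 CPM, subcortical neuron-like cells at 8.18 CPM (6.85 to 9.69) and 12.6 CPM (10.4 to 15.1), and oligodendrocyte-like cells at 10.1 and 11.2 CPM. The unnamed clusters together stood at 19.0 and 29.4 CPM and held 14.7% and 34.0% of all Plvap UMIs. In the one led by Pou4f2 and Barhl1 the level was 26.8 and 31.9 CPM. Of the control endothelial UMIs, 9 came from 1 cell of 9007 UMIs, singled out after its values were seen. That cell also held 13 UMIs of Esm1 and 11 of Exoc3l2, from the list of fenestrated or peripheral capillary genes. Without it the control level was 10.0 CPM. In the tomatidine library no cell of the endothelial cluster held more than 3 Plvap UMIs.

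Mfsd2a was highest in endothelial-like cells, followed by oligodendrocyte precursor-like and astrocyte-like cells. The endothelial levels were 227 CPM (207 to 249) and 186 CPM (167 to 206), from 456 and 369 UMIs. Precursor-like cells stood at 149.8 CPM (136 to 165) and 172 CPM (155 to 190.1), below endothelial-like cells beyond counting error in control (log2 ratio of endothelial to precursor 0.60 (0.41 to 0.79)) and not in tomatidine (0.11 (-0.098 to 0.32)). In the endothelial-like cells low in astrocyte and neuron markers, described below, Mfsd2a stood at 370 CPM (316 to 432) and 274 CPM (236 to 316). The nearness to precursor-like cells in tomatidine thus depended on which endothelial-like cells were taken. Astrocyte-like cells stood at 58.1 and 58.3 CPM and carried 22.6% and 28.3% of all Mfsd2a UMIs, against 25.1% and 22.7% in the endothelial cluster. Endothelial-like cells alone carried 14.6% and 12.5%. Pericyte-like cells held 1 and 1 UMIs.

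Oligodendrocyte precursor-like cells held both caveolins and Mfsd2a, with little Cavin1 or Cavin2. These 377 and 346 cells formed 1 cluster led by Gpr17, Neu4, Pdgfra and Cspg4, genes of the glial cells from which oligodendrocytes form. Cav1 stood there at 282 CPM (263 to 301) and 312 CPM (289 to 336), from 825 and 685 UMIs, and Cav2 at 172 CPM (158 to 188) and 208 CPM (189.6 to 228), from 505 and 458 UMIs. Cavin1 had 13 and 8 UMIs, 4.44 and 3.64 CPM, and Cavin2 20 and 4 UMIs, 6.83 and 1.82 CPM, whereas Cavin3 stood at 50.2 and 58.7 CPM. A Cav1 UMI was found in 71.4% (66.5 to 75.9) and 68.8% (63.6 to 73.6) of these cells, and a Cavin1 UMI in 2.92% and 1.73%. The 11 endothelial markers with probes summed to 62.1 and 98.7 CPM there against 11602 and 13995 CPM in endothelial-like cells, with Cldn5 at 2.39 and 10.0 CPM and Flt1 at 4.10 and 10.0 CPM.

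The promoters of Cav1, Cavin1 and Mfsd2a are shown because Cav1 and Mfsd2a shared the endothelial and precursor pattern and Cavin1 did not. The sequences are from RefSeq on GRCm38.p6, with 250 bases before and 50 after an annotated start, 5′ to 3′ on the strand of the gene, and 5 of the 7 genes had an entry. They lie at chr6:17306085-17306384 (plus strand), chr11:100970568-100970867 and chr4:122961139-122961438 (both minus strand), and for Cav1 and Cavin1 a further start was listed. Capitals mark matches on either strand to the GC box (GGGCGG), the CCAAT box, the TATA box (TATAAA) or a SOX core (AACAAT), with no overlaps here.
Cav1: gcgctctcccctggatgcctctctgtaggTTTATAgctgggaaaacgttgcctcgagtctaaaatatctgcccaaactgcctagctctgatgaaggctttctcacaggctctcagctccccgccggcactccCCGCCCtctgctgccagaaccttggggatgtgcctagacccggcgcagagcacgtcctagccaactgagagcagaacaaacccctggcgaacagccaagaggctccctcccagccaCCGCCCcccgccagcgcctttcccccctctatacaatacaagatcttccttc
Cavin1: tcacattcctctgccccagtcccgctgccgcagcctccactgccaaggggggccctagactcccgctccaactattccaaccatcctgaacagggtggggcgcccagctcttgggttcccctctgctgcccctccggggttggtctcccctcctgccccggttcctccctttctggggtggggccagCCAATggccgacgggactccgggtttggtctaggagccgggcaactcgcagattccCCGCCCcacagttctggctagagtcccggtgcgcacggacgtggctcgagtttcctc
Mfsd2a: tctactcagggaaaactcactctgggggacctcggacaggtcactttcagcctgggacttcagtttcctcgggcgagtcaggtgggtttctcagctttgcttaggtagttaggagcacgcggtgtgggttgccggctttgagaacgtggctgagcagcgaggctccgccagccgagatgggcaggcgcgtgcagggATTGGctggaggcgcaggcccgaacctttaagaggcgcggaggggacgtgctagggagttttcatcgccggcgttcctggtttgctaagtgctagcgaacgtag
The Cav1 window held 2 matches to the GC box and 1 to TATAAA, the Cavin1 window 1 to the GC box and 1 to CCAAT, and the Mfsd2a window 1 to CCAAT. Among 32851 promoter windows of this length, 35.7% held a GC box, 37.4% a CCAAT, 13.6% a TATAAA and 10.7% an AACAAT match.

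Shares of cells with a UMI were read against oligodendrocyte-like cells, whose median depths were 5343 and 4905 UMIs. A Cav1 UMI was found in 71.5% (64.6 to 77.8) and 80.5% (75.1 to 85.1) of endothelial-like cells and in 3.88% and 3.37% of oligodendrocyte-like cells. For Cavin1 the endothelial shares were 77.2% (70.6 to 82.9) and 80.8% (75.5 to 85.4), against 1.08% and 1.22%. For Mfsd2a they were 54.9% (47.6 to 62.1) and 44.8% (38.7 to 51.1), against 4.47% and 5.43%. All 3 genes were thus far above the free RNA of the libraries. With each cell thinned to 1500 UMIs, which left out 17 and 23 endothelial-like cells, the endothelial shares were 43.5% and 55.4% for Cav1, 47.4% and 55.7% for Cavin1 and 27.4% and 19.5% for Mfsd2a. A Plvap UMI was found in 7.25% and 6.90% of endothelial-like and 5.42% and 6.27% of oligodendrocyte-like cells, with intervals of 7.25% (4.02 to 11.9) and 6.90% (4.14 to 10.7) for the former, and was not told apart from background.

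Along the vessel tree Mfsd2a was a capillary gene, and Cavin1 was lower in capillary-like than in venous-like cells. By their arterial, capillary and venous markers, 146 and 169 endothelial-like cells were capillary-like, 9 and 16 arterial-like and 18 and 46 venous-like, and 20 and 30 had under 10 such marker UMIs. Close to the boundary with another group were 5 and 6 of the venous-like and 4 and 7 of the capillary-like cells. The counting intervals do not cover the spread between cells, which matters most in the small groups. Mfsd2a stood at 262 and 218 CPM in capillary-like cells, at 17.8 and 35.2 CPM in venous-like cells from 4 and 8 UMIs, and at 60.6 and 24.6 CPM in arterial-like cells from 2 and 2 UMIs. Its capillary over venous log2 ratio was 3.88 (2.51 to 5.76) in control and 2.63 (1.64 to 3.85) in tomatidine.

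Cavin1 stood at 429 and 517 CPM in capillary-like, 611 and 744 CPM in venous-like and 606 and 824 CPM in arterial-like cells, with capillary over venous ratios of -0.51 (-0.77 to -0.24) and -0.52 (-0.76 to -0.28). Cav1 stood at 386 and 565 CPM, 557 and 665 CPM and 546 and 615 CPM, with capillary over venous ratios of -0.53 (-0.81 to -0.24) and -0.23 (-0.48 to 0.023). Cavin2 went the other way, at 228 and 283 CPM in capillary-like and 161 and 163 CPM in venous-like cells, with ratios of 0.51 (0.012 to 1.04) and 0.80 (0.31 to 1.32). The caveolar coat genes therefore did not share 1 order along the vessel tree. Cav2 had ratios of -0.20 (-0.62 to 0.24) and 0.73 (0.25 to 1.24), and Cavin3 of -0.30 (-0.94 to 0.40) and -0.17 (-0.74 to 0.45). Plvap had at most 5 UMIs in the venous-like cells of a library. Levels also depended on the RNA of other cells held by a barcode. Cavin1 stood at 822 and 834 CPM in the endothelial-like cells low in astrocyte and neuron markers, against 449 and 555 CPM in all endothelial-like cells. The part of such RNA in the capillary and venous levels was not tested.

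**Figure D2:**
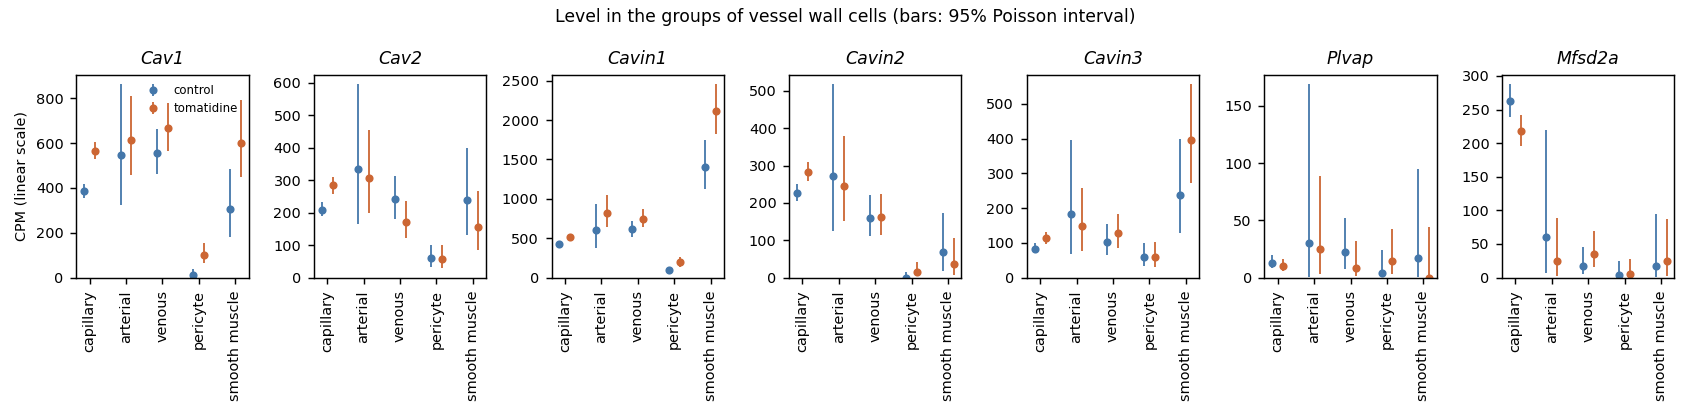
Level of each gene (CPM) in capillary-like, arterial-like and venous-like endothelial cells, pericyte-like cells and smooth muscle-like cells, control and tomatidine side by side, with bars for the 95% Poisson interval of the UMI count. Mfsd2a is highest in capillary-like cells, at 262 and 218 CPM, and Cavin1 in smooth muscle-like cells, at 1407 and 2120 CPM.

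The comparison of the diets asked how the caveolar genes and their counterpart Mfsd2a stood in brain endothelium after tomatidine. Over all cells of the endothelial cluster the caveolins and cavins were higher in the tomatidine library and Mfsd2a was lower. Cav1 went from 1429 to 2096 UMIs, 388 and 514 CPM, a log2 ratio of 0.41 (0.31 to 0.50). Cavin1 went from 1752 to 2638 UMIs, 476 and 647 CPM, a ratio of 0.44 (0.36 to 0.53). Of these Cavin1 UMIs, 742 and 1312 were in the deeper barcodes with both endothelial and mural markers. Pericyte-like and smooth muscle-like cells together held 104 and 216. Whether the barcodes with both kinds of marker were doublets was not tested. Mfsd2a went from 782 to 670 UMIs, 212 and 164 CPM, a ratio of -0.37 (-0.52 to -0.22). The intervals of these 3 genes did not include 0. The ratios were 0.25 (0.11 to 0.38) for Cav2, 0.26 (0.11 to 0.40) for Cavin2 and 0.41 (0.21 to 0.60) for Cavin3. Plvap had 36 and 32 UMIs, and a difference was not detectable at this depth, with a ratio of -0.32 (-1.05 to 0.41). Without the control cell that held 9 of them the ratio was 0.094 (-0.69 to 0.89), so its direction turned on 1 cell.

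These ratios were set against a fixed limit, and their rank among the ratios of all genes is not given. Nor is the share of all genes whose counting interval left out 0, so such intervals do not set the 7 genes apart from other genes. Genes with few UMIs can pass such a limit by counting error alone. All 7 genes had at least 20 UMIs, and 0 of 7 were past a log2 ratio of 0.5 in either direction. Of 12611 genes with that many UMIs in the cluster, 5.96% were past it upwards and 5.14% downwards, around a median ratio of 0.016. In endothelial-like cells alone 0 of 7 were past it, where 7.95% of 11858 genes were upwards and 7.62% downwards. The ratios there were 0.50 (0.37 to 0.63) for Cav1, just under the limit, 0.34 (0.16 to 0.53) for Cav2 and 0.31 (0.18 to 0.44) for Cavin1. Those of Cavin2 and Cavin3 were 0.26 (0.076 to 0.45) and 0.41 (0.11 to 0.70). Mfsd2a had -0.29 (-0.49 to -0.089) and Plvap -0.45 (-1.33 to 0.41).

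Markers of other cells moved with these ratios. In endothelial-like cells the 11 endothelial markers summed to 11602 and 13995 CPM, the 8 astrocyte markers to 7845 and 5838 CPM, the 8 excitatory neuron markers to 2564 and 1793 CPM and the 8 choroid plexus markers to 782 and 388 CPM. Of these markers, 1 choroid plexus marker was at 0 in tomatidine. The tomatidine cells thus held more endothelial RNA and less of the other 3 kinds on the CPM scale.

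The caveolar ratios depended on how strictly endothelial cells were chosen, while Mfsd2a was lower in tomatidine under each of the 3 stricter choices. Under the first and the third of them the intervals of all caveolar ratios included 0, and under the second those of 4 of 5 did not. The share of all genes whose intervals left out 0 is not given here, so that count does not set the caveolar genes apart. A gate that took cells with UMIs of at least 5 endothelial markers, and more endothelial than mural, fibroblast, microglia or astrocyte marker UMIs, held 148 and 237 cells. In it Cav1 stood at 543 and 526 CPM, a log2 ratio of -0.046 (-0.17 to 0.078), and Cavin1 at 604 and 559 CPM, a ratio of -0.11 (-0.23 to 0.0083). Their endothelial markers summed to 14231 and 13764 CPM and their astrocyte markers to 3854 and 3292 CPM. The ratios of Cav2, Cavin2 and Cavin3 were 0.019, 0.048 and -0.041, with intervals that included 0. Mfsd2a stood at 288 and 191 CPM, a ratio of -0.59 (-0.78 to -0.41), past 0.5, as were 5.26% of 11826 genes downwards, against 8.52% upwards.

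The second choice took the 182 and 283 cells of the cluster with fewer mural, fibroblast and choroid plexus than endothelial marker UMIs. The caveolins and cavins stayed a little higher in tomatidine, with ratios of 0.26 (0.14 to 0.38) for Cav1, 0.25 (0.082 to 0.42) for Cav2 and 0.14 (0.024 to 0.25) for Cavin1. Cavin2 had 0.23 (0.063 to 0.40) and Cavin3 0.24 (-0.020 to 0.51), and Mfsd2a -0.39 (-0.57 to -0.21).

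The third choice, the 54 and 111 endothelial-like cells whose astrocyte and excitatory neuron marker UMIs were under 25% of their endothelial marker UMIs, was made after the data were seen. Their endothelial markers summed to 20689 and 21142.5 CPM. Cav1 stood at 768 and 818 CPM, a ratio of 0.091 (-0.11 to 0.29), Cavin1 had a ratio of 0.020 (-0.17 to 0.21) and Mfsd2a, at 370.3 and 274 CPM, one of -0.44 (-0.75 to -0.13). The 9 control Plvap UMIs of this choice were all in 1 cell, the one singled out above. Over 17 other choices of cells and scaling Mfsd2a was lower in tomatidine in all 17, from -0.59 to -0.21. Cav1 was above 0 in 16 of the 17, from -0.046 to 0.57. These choices drew on the same libraries and many on nearly the same cells, so their agreement in direction is not a set of independent checks. The part of other cells' RNA in the caveolar ratios was not tested further.

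**Figure D3:**
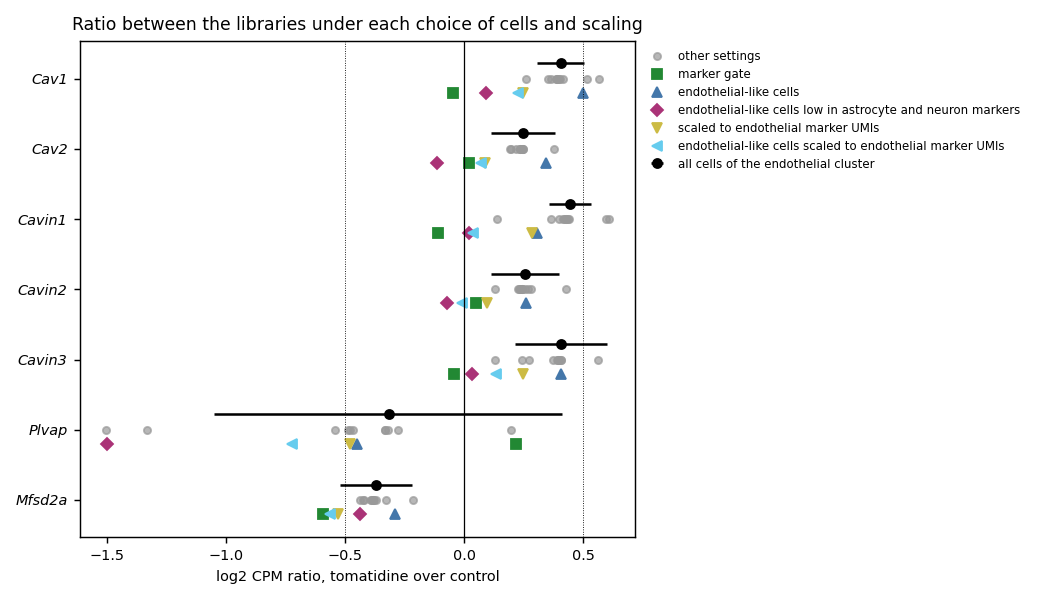
Log2 CPM ratio of each gene, tomatidine over control, in all cells of the endothelial cluster with its 95% counting interval, and under the other choices of cells and scaling, except the removal of 1 cell. In the marker gate the caveolins and cavins lie between -0.11 and 0.048, whereas each value of Mfsd2a is below 0.

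Within the vessel wall, capillary-like cells held 1715412 of the 2005893 control and 1633076 of the 1985008 tomatidine UMIs of endothelial-like cells. Their ratios were therefore bound to be like those of endothelial-like cells as a whole. They were 0.55 (0.40 to 0.70) for Cav1, 0.44 (0.24 to 0.64) for Cav2 and 0.27 (0.13 to 0.41) for Cavin1, with -0.27 (-0.47 to -0.063) for Mfsd2a, while astrocyte markers in these cells summed to 8294 and 5400 CPM. In venous-like and arterial-like cells the intervals of all 7 ratios included 0. These groups were small and their intervals wide, as for venous Cav1 at 0.25 (-0.097 to 0.61), so a difference from capillary-like cells was not shown. In smooth muscle-like cells the ratios were 0.98 (0.18 to 1.85) for Cav1, 0.59 (0.21 to 0.99) for Cavin1, -0.60 (-1.81 to 0.60) for Cav2, -0.91 (-3.68 to 1.66) for Cavin2 and 0.74 (-0.20 to 1.76) for Cavin3, but the smooth muscle markers themselves summed to 15498 and 34770 CPM. The intervals of Cav2, Cavin2 and Cavin3 included 0. In pericyte-like cells the ratios were 2.98 (1.24 to 5.37) for Cav1, 1.10 (0.31 to 1.94) for Cavin1, -0.050 (-1.29 to 1.17) for Cav2 and -0.050 (-1.29 to 1.17) for Cavin3, with pericyte markers at 19454 and 22454 CPM. The 3 and 21 Cav1 UMIs lay in 3 of 40 and 4 of 45 pericyte-like cells, shares of 7.5% and 8.89%. The Cav1 ratio there thus rested on a few cells, whose spread its counting interval does not cover.

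Outside the vessel wall, the lower level of Mfsd2a was not seen in the named classes next in level. Its ratio was 0.20 (-0.0041 to 0.40) in oligodendrocyte precursor-like cells and 0.0050 (-0.14 to 0.15) in astrocyte-like cells, and the difference from endothelial-like cells was not tested. Where its level was low, Mfsd2a had -0.73 (-1.02 to -0.44) in the unnamed clusters together, whose mix differed between the libraries. It was also lower in subcortical neuron-like (-0.90) and fibroblast-like cells (-1.40), and higher in oligodendrocyte-like cells (0.55). In the precursor-like cells Cav1 had a ratio of 0.15 (-0.0026 to 0.29) and Cav2 of 0.27 (0.087 to 0.46). Cavin3 in oligodendrocyte-like cells had a ratio of 0.16 (0.075 to 0.24).

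Most genes of the wider transcytosis machinery were within the fold limit in the endothelial cluster. Of 76 genes on 7 lists, 75 had probes and 69 had at least 20 UMIs, and of these 2 were past a log2 ratio of 0.5 upwards and 4 downwards, to be read against the 5.96% and 5.14% of all genes. Caveolar neck and raft proteins had a median of 0.15 over 10 genes, from the ATPase gene Ehd3 at -0.27 (-0.46 to -0.077) to Pacsin3, a membrane-bending adaptor, at 0.67 (0.25 to 1.10). Ehd2, the ATPase of the caveolar neck, was at 0.18 (0.035 to 0.33). The 6 caveolar kinase, enzyme and LDL receptor genes had a median of 0.042, from the kinase gene Src at -0.22 (-0.43 to -0.015) to Acvrl1, a receptor for LDL transcytosis, at 0.19 (0.080 to 0.30).

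Receptors of transcytosis had a median of -0.081 over 12 genes, from the transcobalamin receptor gene Cd320 at -0.31 (-0.59 to -0.023) to the neonatal Fc receptor gene Fcgrt at 0.32 (0.21 to 0.43). The 16 clathrin coat and adaptor genes had a median of 0.094, from the heavy chain gene Cltc at -0.15 (-0.29 to -0.014) to the cargo adaptor gene Dab2 at 0.26 (0.019 to 0.49). None of these receptor or clathrin genes was past the limit. The 16 genes of endosome sorting and vesicle fusion had a median of 0.039, with the SNARE genes Snap23 lowest at -0.56 (-0.99 to -0.13), past the limit, and Stx4a highest at 0.27 (0.065 to 0.47).

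Lipid uptake genes listed beside Mfsd2a had a median of -0.088 over 6 genes. Slc27a1, a fatty acid transport protein gene, was lowest, with 718 and 534 UMIs and a ratio of -0.57 (-0.74 to -0.41), and Spns1, a lysophospholipid transporter gene, highest at 0.18 (-0.17 to 0.53). Slc27a4, of the same family as Slc27a1, was at -0.33 (-0.57 to -0.095) and Fabp5, which binds fatty acids in the cytosol, at -0.35 (-0.54 to -0.16). The astrocyte markers of the cluster summed to 7264 and 5564 CPM, and their part in these ratios was not tested. Of the fenestrated or peripheral capillary list, Plpp3 had 2593 and 2028 UMIs and a ratio of -0.50 (-0.59 to -0.42), Esm1 17 and 4 UMIs and Aplnr 2 and 24 UMIs. Whether the Plpp3 UMIs came from endothelial cells or from astrocyte RNA was not tested, so its ratio is not read as one of fenestrated capillaries. Of the control Esm1 UMIs, 13 were in the cell singled out for its Plvap, and without that cell Esm1 was below the minimum of 20 UMIs. Ehd2, Slc27a4, Fabp5, Esm1 and Aplnr were named after their values were seen.

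**Figure D4:**
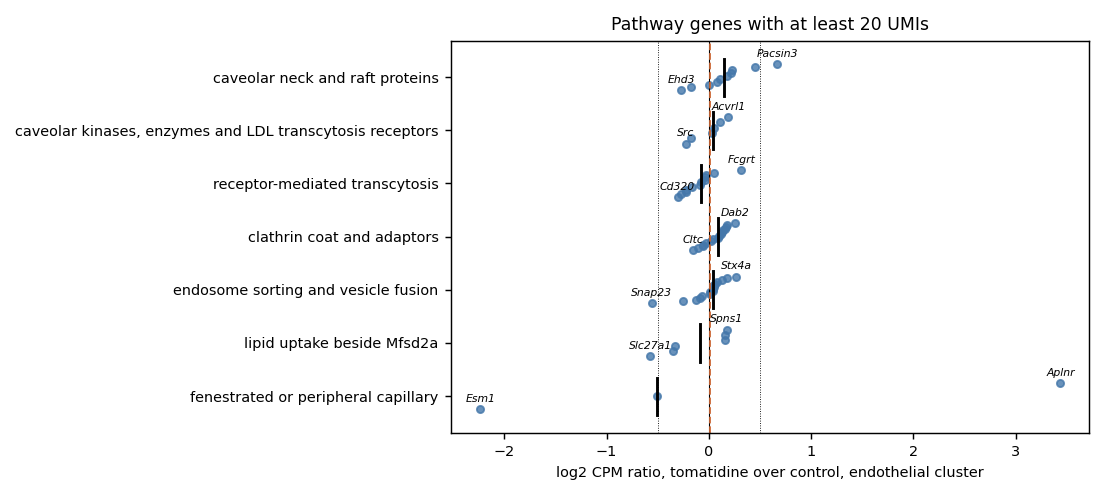
Log2 CPM ratio, tomatidine over control, of each pathway gene with at least 20 UMIs in the endothelial cluster, by list, with list medians as black bars, the median of all genes as a dashed line and dotted lines at 0.5 and -0.5. Most genes lie between the dotted lines, and Esm1 and Aplnr, far outside them, had 17 and 4 and 2 and 24 UMIs in control and tomatidine, with 13 of the control Esm1 UMIs in 1 cell.

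The genes most like each member were found by Pearson's r of log2(CPM + 1) over the 14 named classes in both libraries, 28 points that share libraries, among 14070 genes. For Cav1 these were Lmcd1 (0.89), Golim4 (0.87), Kif26a (0.85), and for Cav2 Fam181b (0.85), Ccn1 (0.83), Kif26a (0.82). For Cavin1 they were Uaca (0.96), Tm4sf1 (0.94), Lamb2 (0.92), for Cavin2 Gata2 (0.82), Igf1r (0.79), Heg1 (0.79) and for Cavin3 Clic4 (0.91), Nkd1 (0.90), Fermt2 (0.89). The genes most like Plvap, Pak3 (0.87), Gls2 (0.86), Slc35f4 (0.85), were all highest in interneuron-like cells. For Mfsd2a they were Tshz1 (0.78), Caskin2 (0.77), Mpzl1 (0.76). Among the members Cav1 was most like Cav2 (0.73) and Mfsd2a (0.71), and Cavin1 most like Cavin2 (0.69).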

How the data were processed

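The authors deposited 1 matrix of raw UMI counts per gene and cell for each library, made with Cell Ranger on mm10 (version 8.0.0 in the submitters' processing notes and 7.1.0 in the matrix header), from a fixed RNA probe kit. Cells with at least 500 UMIs, over 250 genes, a complexity above 0.8 and under 20% mitochondrial UMIs were kept. Scrublet called 0 and 1 cells and had thus not worked, so the 2% with the highest score were removed in each library. Cells were clustered with Seurat 5.3.0 (RPCA, 2000 variable genes without members or pathway genes, 30 components, resolution 0.8) in R 4.3.3, and named from marker lists. A cluster took a class name where at least 3 markers, and most of the list, were raised 2-fold over the median cluster and found in at least 10% of its cells, where no other class had more raised markers or more markers among its 10 leading genes, and where its depth was not very low. Otherwise it stayed unnamed. Within the endothelial cluster, cells with at least 5 endothelial, pericyte and smooth muscle marker UMIs were endothelial-like at up to 20% and mural at 80% or more of pericyte and smooth muscle UMIs. Sums, exact Poisson, Clopper-Pearson and conditional binomial intervals were computed in Python 3.11.15 with scipy 1.17.1, scanpy 1.11.5 and, for TMM factors, edgeR 4.0.16, and tested on simulated data. The fold limit was a log2 ratio of 0.5 with at least 20 UMIs in both libraries together. Named pathway genes were the highest and lowest of each list with at least 50 UMIs, and genes below 200 UMIs were left out of the likeness. The members and lists were chosen with earlier results of these data known, and the split of the endothelial cluster after the data were seen. Alternatives changed the cell filter, doublets, integration, resolution, cells, scaling and thinning.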

Additional observations from a re-analysis of the deposited data

Results flagged for a closer look

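For 2 genes the ratio of tomatidine to control was past 0.5 in opposite directions in different cell classes outside the endothelium, each with a counting interval that did not include 0. Cavin2 had a log2 ratio of -1.91 in oligodendrocyte precursor-like cells, from 20 and 4 UMIs, and of 0.98 in fibroblast-like cells, from 23 and 75 UMIs. Mfsd2a had -0.90 in subcortical neuron-like cells, from 89 and 27 UMIs, and -1.40 in fibroblast-like cells, from 16 and 10 UMIs, but 0.55 in oligodendrocyte-like cells, from 155 and 174 UMIs. The share of all genes past 0.5 in these classes is not given here, so these ratios are not set apart from those of other genes. Several rest on few UMIs. The subcortical class pooled clusters whose mix differed between the libraries, such as one of 125 and 36 cells. The differences between classes were not tested, as each group is 1 library.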

How the results depend on the processing

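The log2 ratios in the endothelial cluster that moved beyond their counting interval did so with the choice of cells or the scaling. They were, without a filter on cells, Cav1 0.57, Cavin1 0.61, Cavin2 0.43, Mfsd2a -0.21. In the marker gate they were Cav1 -0.046, Cav2 0.019, Cavin1 -0.11, Cavin2 0.048, Cavin3 -0.041, Mfsd2a -0.59. In cluster cells with fewer mural, fibroblast and choroid plexus than endothelial marker UMIs they were Cav1 0.26, Cavin1 0.14. As means of per-cell CPM they were Cav1 0.52, Cavin1 0.60, Cavin3 0.13, Plvap -1.50. Scaled to endothelial marker UMIs, which put the median of all genes at -0.14, they were Cav1 0.25, Cav2 0.087, Cavin1 0.28, Cavin2 0.096, Mfsd2a -0.53. In endothelial-like cells low in astrocyte and neuron markers they were Cav1 0.091, Cav2 -0.11, Cavin1 0.020, Cavin2 -0.070, Cavin3 0.031, Plvap -1.50, and in endothelial-like cells scaled to endothelial markers Cav1 0.23, Cav2 0.073, Cavin1 0.037, Cavin2 -0.0088, Cavin3 0.13, Mfsd2a -0.56. Under the second set of limits on cells Plvap had -1.33, and in endothelial-like cells Cavin1 had 0.31. In the cells low in astrocyte and neuron markers all 9 control Plvap UMIs were in 1 cell, which also held 9 of the 20 under the second limits, and without it the ratio over the cluster was 0.094. The count of members past the fold limit, 0 in both directions, became 3 higher and 1 lower without a filter, where 7.39% and 8.43% of all tested genes were past it. It was 2 higher and 1 lower as per-cell means (12.3% and 9.02% of all genes). It was 1 lower in the gate (5.26%), 1 lower under the second limits (6.11%), 1 lower when scaled to endothelial markers (10.1%) and 2 lower in endothelial-like cells scaled so (21.4%). The causes were not tested. The scaling to endothelial markers, the choices of endothelial-like cells and the removal of 1 cell were added after the data were seen. No paired analysis was possible because each group is 1 library, and no replicate could be left out.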

Other observations

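Cav2 was also present in excitatory neuron-like cells, with 2950 and 3601 UMIs, 27.1 and 37.2 CPM, and a log2 ratio of 0.46 (0.39 to 0.53). Cav1 was at 2.36 and 3.38 CPM in the same cells.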
